A study of Mus musculus with 4 samples.

Results

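Norad, Tug1, Miat, Pvt1, Dleu2 and Mir17hg are long noncoding RNAs that many mouse tissues express. They were looked up by name on either side of each RNA-RNA pair in a table of contacts from mouse spermatogonial stem cells. Tug1, Pvt1, Dleu2 and Mir17hg were found, 4 of the 6, among 13318 RNAs, and held 32 of 56636 listed pairs. Norad and Miat were not found under these names. The groups were 2 libraries labelled differentiation and 2 control libraries labelled WT, all from spermatogonial stem cells, the self-renewing cells of the testis from which sperm descend. The sources used here give neither the inducer nor the duration of differentiation, nor whether the libraries came from separate cultures, so the p-values reflect spread among 4 libraries that may be technical in part or whole. Contacts were measured by RIC-seq, in which RNA is fixed in the cell with formaldehyde, cut, and joined to whatever RNA end lies close by, so that each joined (chimeric) read counts 1 contact.

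Long noncoding RNAs work without being translated, some as scaffolds for proteins in the nucleus, some as binding sites for proteins in the cytoplasm, and some as precursors of microRNAs. Norad carries many binding sites for Pumilio proteins, which repress mRNAs. Tug1 is needed for normal sperm formation in mice, and Miat is a nuclear RNA with repeats bound by splicing factors. Pvt1 lies beside the Myc gene. Dleu2 and Mir17hg are host transcripts: the first carries the genes of miR-15a and miR-16-1, the second those of the miR-17-92 cluster.

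The mature microRNAs of the host transcripts are shown because they are the known products of Dleu2 and Mir17hg and define the target lists used further on. Sequences are from RefSeq (GRCm38.p6), 5′ to 3′, with the seed (bases 2 to 8) in capitals. The first 2 are from Dleu2 and share 1 seed.
miR-15a-5p: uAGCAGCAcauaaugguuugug
miR-16-5p: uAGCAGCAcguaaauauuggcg
The next 6 are from the Mir17hg cluster, in which miR-17 and miR-20a share a seed, miR-19a and miR-19b share another, and miR-18a and miR-92a have their own.
miR-17-5p: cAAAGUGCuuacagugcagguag
miR-20a-5p: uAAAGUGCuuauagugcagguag
miR-18a-5p: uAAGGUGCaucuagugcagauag
miR-19a-3p: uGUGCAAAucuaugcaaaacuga
miR-19b-3p: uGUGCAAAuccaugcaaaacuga
miR-92a-3p: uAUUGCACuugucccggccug
None of these microRNA genes was named in the contact table, so the values below are those of the host RNAs.

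Total counts were 793129 and 1155923 in the differentiation libraries and 1209031 and 1400011 in the controls. The table listed only pairs with at least 1 count in every library. These totals are therefore those of shared pairs, and a pair lost completely in either group could not be seen. The pairs of Tug1, Pvt1, Dleu2 and Mir17hg together held 245 and 264 counts in the differentiation libraries, 0.0309% and 0.0228% of each, and 401 and 476 counts in the controls, 0.0332% and 0.0340%. The labelled cell type was set against its markers by contact totals, the summed counts of all pairs of an RNA. Of 6 germ line markers 5 were listed, with Rhox13 not listed, and none passed the test. Tex14 held most of their summed level, at 3971 and 3511 CPM (counts scaled to library size) in the differentiation libraries and 3716 and 4064 CPM in the controls. The other 4 (Ddx4, Dazl, Mael and Tdrd1) were low and had log2 changes of 0.71 to 1.87. Of 8 markers of meiotic prophase 7 were listed, and all 5 that were tested rose, where 5.44% of all tested RNAs rose. In DESeq2 4 of these 5 were called. Their median was 2.20, and ran from 1.90 to 2.46 with 1 library left out. Sycp3, with 3 and 5 counts in differentiation and 1 and 2 in control, was too low for a test. So was Rec8, with 2 and 2 in differentiation and 3 and 2 in control. The summed level of the 7 listed markers was 478 and 579.8 CPM in the differentiation libraries and 117 and 108 CPM in the controls. Of 6 markers of differentiating spermatogonia 5 were listed, with Dnmt3b not listed, 4 were tested and none passed. Their median was 0.10, and their summed level 104 and 98.3 CPM in the differentiation libraries and 93.7 and 122 CPM in the controls. Of 13 markers of undifferentiated spermatogonia 7 were listed, among them Gfra1 and Shisa6, and Id4, Lhx1, Nanos2, Lin28a, Bcl6b and Eomes were not listed. Of the 5 that were tested Gfra1 and Shisa6 fell, where 6.75% of all tested RNAs fell. Ret, Zbtb16 and Etv5 did not pass, with log2 changes of −1.30 to −0.69. The median of the 5 was −1.20, and ran from −1.40 to −0.80 with 1 library left out. The summed level of the listed markers was 232 and 211 CPM in the differentiation libraries and 743 and 870.4 CPM in the controls. Shisa6 alone held 141 and 105 CPM in the differentiation libraries and 544 and 638 CPM in the controls.

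Dleu2 was the only one of the 4 RNAs whose contact total passed the test. Dleu2 lies on chromosome 14 at 61602836 to 61682373 (GRCm38.p6), and its interval holds the genes of miR-15a and miR-16-1. It also overlaps the protein-coding genes Trim13 and Kcnrg, which were not listed. Whether reads named Dleu2 came from these genes was not tested. The Dleu2 total was 41 and 57 counts in the differentiation libraries and 88 and 129 counts in the controls. After scaling this was 32.1 ± 1.88 CPM in the differentiation libraries and 57.9 ± 9.94 CPM in the controls (SD, n = 2 each). Both differentiation libraries lay below both controls. The total fell 1.81-fold, a log2 change of differentiation over control of −0.86 (SE 0.25, 95% interval −1.40 to −0.32, edgeR quasi-likelihood test, adjusted p = 0.0437). Contact totals count chimeric reads, so less RNA in each cell, fewer cells that carry it and fewer contacts per RNA cannot be told apart. Of the 4 totals tested 1 was lower and 0 higher, where 6.75% of 10993 tested RNAs were lower and 5.44% higher.

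The Dleu2 call stood close to the threshold and held in 6 of 14 alternatives. It was lost with RLE scaling (adjusted p = 0.0524), column totals (0.104), DESeq2 (0.138) and the removal of Gm42418 and Gm26917 pairs (0.0636). It was also lost without control 1 (adjusted p = 0.142), without control 2 (0.424) and without differentiation 2 (0.0817), and without differentiation 1 the adjusted p was 0.0244. Some markers of other cells changed between the same libraries. Of 8 Sertoli cell markers 6 were listed and tested, with Amh and Rhox8 not listed, and 4 fell, where 6.75% of all tested RNAs fell. Their summed level was 554 and 509 CPM in the differentiation libraries and 851 and 981 CPM in the controls. All 8 fibroblast and feeder markers were listed and tested and 4 fell, against the same 6.75%. Their summed level was 1000.5 and 1133 CPM in the differentiation libraries and 1575 and 1492 CPM in the controls. Fewer markers of both lists were called when either control was left out. Of 7 Leydig and peritubular markers 4 were listed and none passed, with a median of −0.06 and levels of 210.4 and 208 CPM in the differentiation libraries and 209 and 220.1 CPM in the controls. Of 5 immune cell markers 3 were listed and 1 was tested, Itgam, which did not pass (edgeR, adjusted p = 0.293). Itgam had 56 and 4 counts in the differentiation libraries and 8 and 20 in the controls, so the 2 differentiation libraries differed in it. The part of all these other cells in the Dleu2 result was not tested, nor was that of the undifferentiated and meiotic markers.

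Among the tested pairs of Dleu2, that of the RNA with itself had the lowest log2 change. This pair had 16 and 14 counts in the differentiation libraries and 48 and 69 in the controls, or 18.1 ± 6.60 CPM in differentiation and 45.0 ± 6.39 CPM in control (SD, n = 2 each). Pairs and contact totals were scaled apart in separate fits, so their CPM and log2 changes cannot be set directly against each other. The groups did not overlap, and the log2 change was −1.35 (SE 0.41, interval −2.22 to −0.48). It did not pass after adjustment over 31688 pairs (edgeR, adjusted p = 0.0670), where 5.24% of pairs passed, 2.85% higher and 2.4% lower. Contacts of Dleu2 with other RNAs summed to 25 and 43 counts in the differentiation libraries and 40 and 60 in the controls, and over between-RNA pairs only the Dleu2 total had a log2 change of −0.11 (SE 0.29, adjusted p = 0.848).

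Contacts within Dleu2 made up 39.0% (exact 95% interval 24.2% to 55.5%) and 24.6% (14.1% to 37.8%) of its total in the differentiation libraries. In the controls they made up 54.5% (43.6% to 65.2%) and 53.5% (44.5% to 62.3%). These intervals cover counting error only. A fit of contact kind by group over 3210 RNAs with both kinds gave Dleu2 a log2 change of within over between contacts of −1.38 (SE 0.46, interval −2.46 to −0.30). This did not pass (edgeR, adjusted p = 0.211). In that fit 0 of 3210 RNAs passed in edgeR, 0% of those tested, 614 had an unadjusted p under 0.05, and the median change over all of them was 0.35, in the other direction from that of Dleu2.

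**Figure D1:**
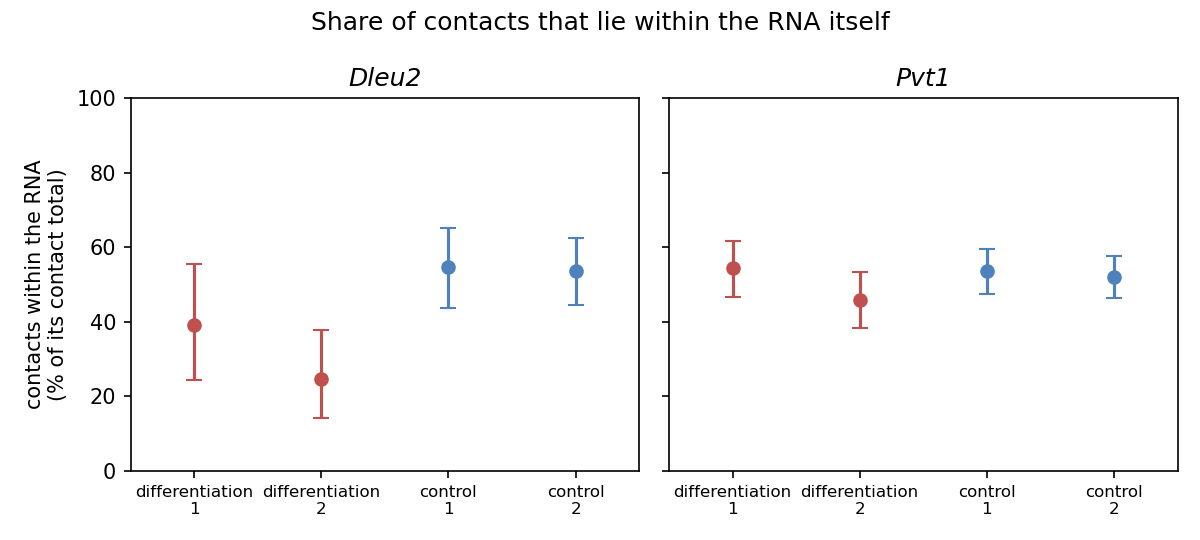
Contacts within the RNA itself as a percentage of the contact total of Dleu2 (left) and Pvt1 (right) in each library; bars are exact 95% binomial intervals and cover counting error only. The Dleu2 share is 39.0% and 24.6% in the differentiation libraries and 54.5% and 53.5% in the controls, while the 4 Pvt1 shares lie between 45.8% and 54.2%.

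Dleu2 had 7 partner RNAs. Its largest were the hub RNAs Gm26917, with 6 and 11 counts in the differentiation libraries and 8 and 19 in the controls, and Gm42418, with 2 and 10 in differentiation against 9 and 20 in control. With Slc9a9, an ion exchanger gene and another hub, it had 6 and 9 counts in the differentiation libraries and 9 and 5 in the controls. The log2 changes were −0.10 (adjusted p = 0.958), −0.73 (adjusted p = 0.598) and 0.63 (adjusted p = 0.657), all edgeR, and did not pass. The hubs, taken as the 5 RNAs with most partners, were Gm42418, Slc9a9, Gm26917, Shroom3 and Malat1, which had pairs with 63.2%, 58.8%, 56.9%, 22.8% and 16.4% of all listed RNAs. RefSeq lists Gm42418 as the pseudogene Rn18s-rs5, named for ribosomal RNA. Dleu2 with the transcript Gm37472 had 4 and 4 counts in the differentiation libraries and 6 and 8 in the controls (−0.22, adjusted p = 0.906, edgeR).

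The other partners of Dleu2 had too few counts for a test. Kpna3, which encodes an importin alpha that carries proteins into the nucleus, lay 163 kb from Dleu2 and had 2 and 2 counts with it in the differentiation libraries and 5 and 4 in the controls. Wdfy2, an endosome protein gene 1.16 Mb away, had 2 counts in every library. Shroom3, an actin-binding protein gene on chromosome 5, had 3 and 5 counts in the differentiation libraries and 1 and 2 in the controls. Of the 9 listed RNAs within 1 Mb of Dleu2 only Kpna3 had a pair with it, and the nearest one, Spryd7 at 45.95 kb, had none.

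Pvt1 had the most pairs, 18 of the 32, and lies on chromosome 15 at 62037986 to 62260215. Its contact total was 177 and 177 counts in the differentiation libraries and 275 and 314 in the controls. The scaled levels were 144 and 95.6 CPM in the differentiation libraries and 159 and 158 CPM in the controls. The groups did not overlap, but the differentiation libraries differed far more from each other than the controls did. The log2 change of −0.42 (SE 0.21, interval −0.87 to 0.04) did not pass (edgeR, adjusted p = 0.226). The size of this change depended on which differentiation library was kept: it was −0.14 without differentiation 2 and −0.70 without differentiation 1.

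Contacts of Pvt1 with itself were 96 and 81 counts in the differentiation libraries and 147 and 163 in the controls. On the scale of pairs, which is not that of totals, this was 107 ± 41.6 CPM in differentiation and 120.4 ± 4.92 CPM in control (SD, n = 2 each). The groups overlapped (log2 change −0.19, interval −0.79 to 0.41, adjusted p = 0.786, edgeR). They made up 54.2% and 45.8% of the Pvt1 total in the differentiation libraries and 53.5% and 51.9% in the controls. The balance of within over between contacts had a change of −0.15 (interval −0.78 to 0.47, adjusted p = 0.792, edgeR).

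**Figure D2:**
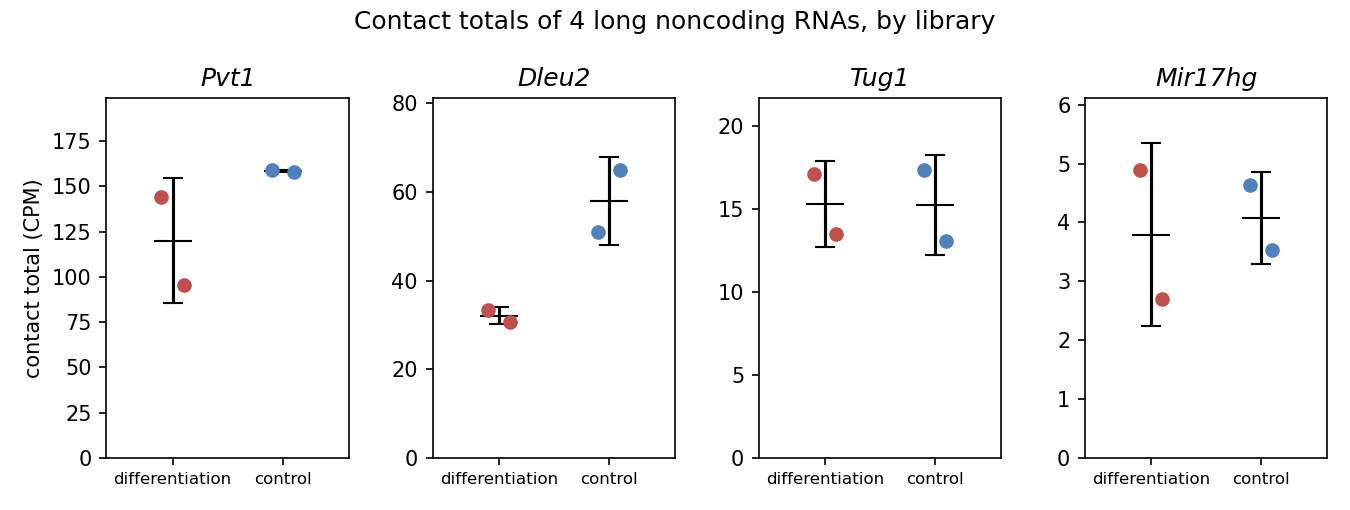
Contact totals in CPM of Pvt1, Dleu2, Tug1 and Mir17hg, each with its own axis from 0; points are libraries, with differentiation left of control, and the bar gives mean ± SD (n = 2 each). The Dleu2 libraries separate by group (33.4 and 30.8 CPM in differentiation, 50.9 and 65.0 CPM in control), while Tug1 and Mir17hg overlap.

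Of the 17 partners of Pvt1, 5 were hubs, 4 lay on its own chromosome and the other 8 were neither hubs nor located there. With Gm42418 it had 15 and 15 counts in the differentiation libraries and 24 and 42 in the controls, with Gm26917 15 and 22 in differentiation against 16 and 32 in control, and with Slc9a9 12 and 14 in differentiation against 25 and 20 in control. Their log2 changes were −0.53, 0.20 and −0.22, and none passed (edgeR, adjusted p = 0.568, 0.866 and 0.860). With Malat1, a nuclear-speckle RNA, Pvt1 had 7 and 6 counts in the differentiation libraries and 9 and 11 in the controls, a change of −0.03 (interval −1.35 to 1.30). The contact total of Malat1 itself fell, by 1.09 on the log2 scale, in the fit of totals, which was scaled apart from that of pairs. Hubs held 61.7% and 63.5% of the between-RNA counts of Pvt1 in the differentiation libraries and 60.2% and 72.8% in the controls.

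On chromosome 15 Pvt1 had pairs with Fam49b at 1.67 Mb, Asap1 at 1.83 Mb, Nsmce2 at 2.44 Mb and Ext1 at 8.69 Mb. Asap1 encodes a GTPase-activating protein for Arf proteins, and its pair had 5 and 3 counts in the differentiation libraries and 11 and 11 in the controls. The groups did not overlap, and the change of −0.85 (interval −2.31 to 0.61) did not pass (edgeR, adjusted p = 0.545). Nsmce2, a SUMO ligase gene of the SMC5/6 complex, had 1 and 6 counts with Pvt1 in the differentiation libraries and 8 and 5 in the controls (−0.36, adjusted p = 0.856, edgeR).

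Fam49b, named Cyrib in RefSeq and known to bind Rac1, had 8 and 2 counts with Pvt1 in the differentiation libraries and 2 and 2 in the controls. Ext1, a heparan sulfate polymerase gene, had 3 and 1 in differentiation against 2 and 3 in control. Both pairs were too small for a test. Myc, the neighbour of Pvt1, was listed but had no pair with it, and its own total was 8 and 26 counts in the differentiation libraries and 18 and 28 in the controls (−0.21, adjusted p = 0.830, edgeR). The histone pseudogene H2afy3 lies inside the Pvt1 interval, so reads there can be shared between the 2 names. Of 55 listed RNAs within 10 Mb of Pvt1, 4 had a pair with it.

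Outside the hubs, 6 of the 12 Pvt1 and Dleu2 pairs whose partner could be located joined RNAs within 10 Mb on 1 chromosome. Among all 17499 such pairs without hubs the share was 13.6%. The 2 shares are a description with no test, since few pairs stand behind the first and the partners of 1 RNA share its locus.

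Further partners of Pvt1 had few counts. Cdk8, the Mediator kinase gene, had 3 and 3 counts in the differentiation libraries and 6 and 3 in the controls, and the transcript Gm23935 had 3 and 8 in differentiation against 7 and 3 in control (0.65, adjusted p = 0.687, edgeR). Hspa8, which encodes a constitutive Hsp70 chaperone, had 1 and 2 in differentiation against 3 and 6 in control. The small nucleolar RNA Snord14d had 1 and 1 in differentiation against 3 and 1 in control. Snord14d lies inside Hspa8, so these pairs may share reads. Shroom3, Gm27913, Rn7sk (the 7SK RNA that restrains transcription elongation), the mitochondrial ribosomal RNA mt-Rnr1 and Gm12153 had 5 to 13 counts summed over all libraries. Gm23935, Gm12153 and Cdk8 were not among the 5 hubs but had 2134, 1710 and 1294 partners. The hub with fewest, Malat1, had 2181, and the median was 3 over RNAs with a between-RNA pair.

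Tug1 had 4 pairs, all with other RNAs, and no listed contact with itself. It lies on chromosome 11 at 3639785 to 3648814. Its total was 21 and 25 counts in the differentiation libraries and 30 and 26 in the controls, or 15.3 ± 2.56 CPM in differentiation and 15.2 ± 3.01 CPM in control (SD, n = 2 each). The groups overlapped, and the log2 change was −0.00 with an interval of −0.83 to 0.82 (edgeR, adjusted p = 0.998), so changes of up to about that size in either direction fit the data.

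With Malat1 Tug1 had 2 and 2 counts in the differentiation libraries and 12 and 8 in the controls, with no overlap between groups. The change of −1.72 (SE 0.77, interval −3.35 to −0.09) did not pass (edgeR, adjusted p = 0.218). The Malat1 total had a change of −1.09 (SE 0.15, adjusted p = 0.00106, edgeR) in the fit of totals. That fit was scaled apart from the fit of pairs, so the 2 changes are on different scales. A change of the pair beyond that of Malat1 was not tested.

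With Slc9a9 Tug1 had 9 and 7 counts in the differentiation libraries and 5 and 8 in the controls, and after scaling the groups did not overlap (0.89, interval −0.50 to 2.29, adjusted p = 0.491, edgeR). With Gm42418 it had 8 and 9 in differentiation against 11 and 9 in control (0.33, adjusted p = 0.829, edgeR), and with Gm23935 it had 2 and 7 in differentiation against 2 and 1 in control, too few for a test. Of 77 listed RNAs within 10 Mb of Tug1 none had a pair with it, although Morc2a, a chromatin-silencing gene, lies 0.375 kb away.

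Mir17hg, the host of the miR-17-92 cluster on chromosome 14 at 115044390 to 115046728, had 2 pairs, both with hubs. With Gm42418 it had 5 and 3 counts in the differentiation libraries and 6 and 3 in the controls (0.40, interval −1.27 to 2.06, adjusted p = 0.844, edgeR). With Gm26917 it had 1 and 2 counts in the differentiation libraries and 2 and 4 in the controls. Its total of 6 and 5 counts in differentiation against 8 and 7 in control had a log2 change of −0.15 with an interval of −1.53 to 1.24 (adjusted p = 0.920, edgeR), which is too wide to show even a 2-fold difference. Of the 6 microRNAs shown for the cluster, only miR-92a-3p lies within the RefSeq interval of Mir17hg, and the sources used here do not say under which name contacts in the rest of the cluster were counted.

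**Figure D3:**
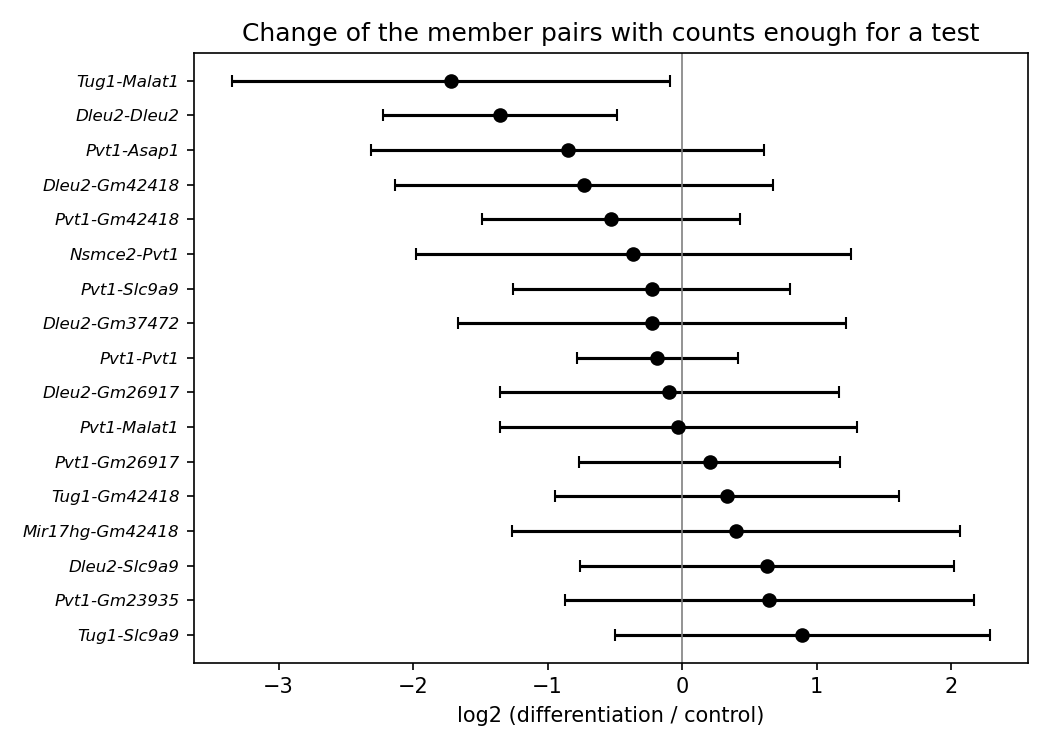
Log2 change of differentiation over control of the 17 pairs of Tug1, Pvt1, Dleu2 and Mir17hg that had counts enough for a test, with 95% intervals of the edgeR fit before adjustment. Tug1-Malat1 (−1.72) and Dleu2-Dleu2 (−1.35) lie furthest below 0 and their intervals exclude it, but no pair passed after adjustment. Over all 31688 tested pairs 6551 had an unadjusted p under 0.05 (edgeR).

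Of the 32 pairs, 17 had counts enough for a test and 0 passed in edgeR. Of the 17, 2 (Dleu2 with itself and Tug1 with Malat1) had an unadjusted p under 0.05 in edgeR. Over all 31688 tested pairs 6551 did, so 2 of 17 is no excess. In DESeq2 0 passed, although it gave most of them no adjusted p. No pair joined 2 of the 4 RNAs to each other. All 4 had a pair with Gm42418, Pvt1, Dleu2 and Mir17hg one with Gm26917, and Pvt1, Dleu2 and Tug1 one with Slc9a9.

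Norad has the older name 2900097C17Rik in RefSeq, and this name was in the table with 2 pairs. They are given here outside the counts above. With Gm7292 it had 1 and 10 counts in the differentiation libraries and 3 and 4 in the controls, and with Slc9a9 1 and 2 in differentiation against 2 and 1 in control. Its total of 2 and 12 counts in the differentiation libraries and 5 and 5 in the controls was too low for a test. Miat was not listed under a RefSeq synonym either.

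The first list held genes of proteins known to bind these transcripts or their human counterparts. Of 11 such genes 10 were tested, 1 rose and 0 fell, where 12.2% of all tested RNAs passed in either direction, and the median log2 change was 0.21 against −0.00 over all RNAs. Pum2, which encodes a Pumilio repressor bound by Norad, had 639 and 1250 counts in the differentiation libraries and 571 and 794 in the controls. Its log2 change of 0.71 (SE 0.17) passed the test (edgeR, adjusted p = 0.0212). Leaving out control 1 or control 2 ended this call (adjusted p = 0.262 and 0.179), as did counting between-RNA pairs alone (0.06, adjusted p = 0.889). Among 8 genes of mitosis and Pumilio targets 5 were tested, 1 rose and 0 fell, where 12.2% of all tested RNAs passed in either direction. Bub1, the spindle checkpoint kinase gene, was the 1 that rose. It had 56 and 70 counts in the differentiation libraries and 23 and 27 in the controls (1.62, SE 0.31, adjusted p = 0.00575, edgeR). The Bub1 call was lost without control 1 (adjusted p = 0.0938), without control 2 (0.133) and over between-RNA pairs only (0.222).

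Known targets of the microRNAs were compared by their own contact totals. Of 10 targets of the miR-17-92 cluster 8 were tested and 0 passed in edgeR, where 12.2% of all tested RNAs passed, or in DESeq2. Their median was −0.39. Those of highest mean count were Tgfbr2, a TGF-beta receptor gene (−0.27, adjusted p = 0.385, edgeR), and the cell cycle regulator E2f3 (−0.52, adjusted p = 0.133, edgeR). Of 9 targets of miR-15 and miR-16 7 were tested, 1 rose and 1 fell, against 12.2% of all tested RNAs in either direction, with a median of −0.33. Cdc25a, the phosphatase gene that drives entry into S phase, had 92 and 170 counts in the differentiation libraries and 64 and 100 in the controls, and rose by 0.93 (SE 0.23, adjusted p = 0.0220, edgeR). Leaving out control 1, control 2 or differentiation 2 ended this call (adjusted p = 0.235, 0.131 and 0.0521), and with between-RNA pairs alone the change was −0.41.

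Bcl2, the survival gene, had 76 and 92 counts in the differentiation libraries and 135 and 245 in the controls. It fell, with a log2 change of −0.87 (SE 0.25, adjusted p = 0.0431, edgeR). It did not pass when control 1, control 2 or differentiation 2 was left out (adjusted p = 0.0705, 0.488 and 0.0532), in DESeq2 (0.0650), with column totals (0.0980), without Gm42418 and Gm26917 pairs (0.127) or with between-RNA pairs alone (0.0735), and held in 7 of 14 alternatives. The lists hold members that went opposite ways, and the levels of the microRNAs were not measured.

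Of 14 genes of microRNA processing 12 were tested, 0 rose and 2 fell, where 6.75% of all tested RNAs fell, with a median of −0.02, which was 0.01 with RLE scaling and 0.13 with column totals. Ago2, the slicing Argonaute gene, had 67 and 67 counts in the differentiation libraries and 148 and 177 in the controls (−0.97, SE 0.23, adjusted p = 0.0202, edgeR). Tnrc6a, which encodes a GW182 partner of Argonaute, had 220 and 277 counts in differentiation against 400 and 570 in control (−0.66, SE 0.18, adjusted p = 0.0328, edgeR). Both calls were lost without control 1 (adjusted p = 0.153 and 0.127) and without control 2 (0.242 and 0.393), and that of Ago2 without differentiation 2 (0.0636). The Tnrc6a call was also lost with column totals (adjusted p = 0.106) and without Neat1 and Malat1 pairs (0.0657).

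Of 166 genes within 500 kb of the 6 loci 47 were listed and 41 tested. Of these 2 rose and 2 fell, 4 of 41 where 12.2% of all tested RNAs passed, so the share was near the background, and the median was 0.05. Near Tug1, Osbp2, an oxysterol-binding protein gene 54.9 kb away, rose by 1.49 (adjusted p = 0.0127, edgeR). Near Norad, the postsynaptic scaffold gene Dlgap4 (−0.84, adjusted p = 0.00968, edgeR) and the myosin light chain gene Myl9 (−1.23, adjusted p = 0.0348, edgeR) fell. Osbp2, Dlgap4 and Myl9 lost their calls without control 1 or without control 2, at adjusted p up to 0.233, 0.192 and 0.277 in that order. Myl9 also lost its call without differentiation 2 (adjusted p = 0.0889), with column totals (0.0639), in DESeq2 (0.133) and without Gm42418 and Gm26917 pairs (0.363).

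**Figure D4:**
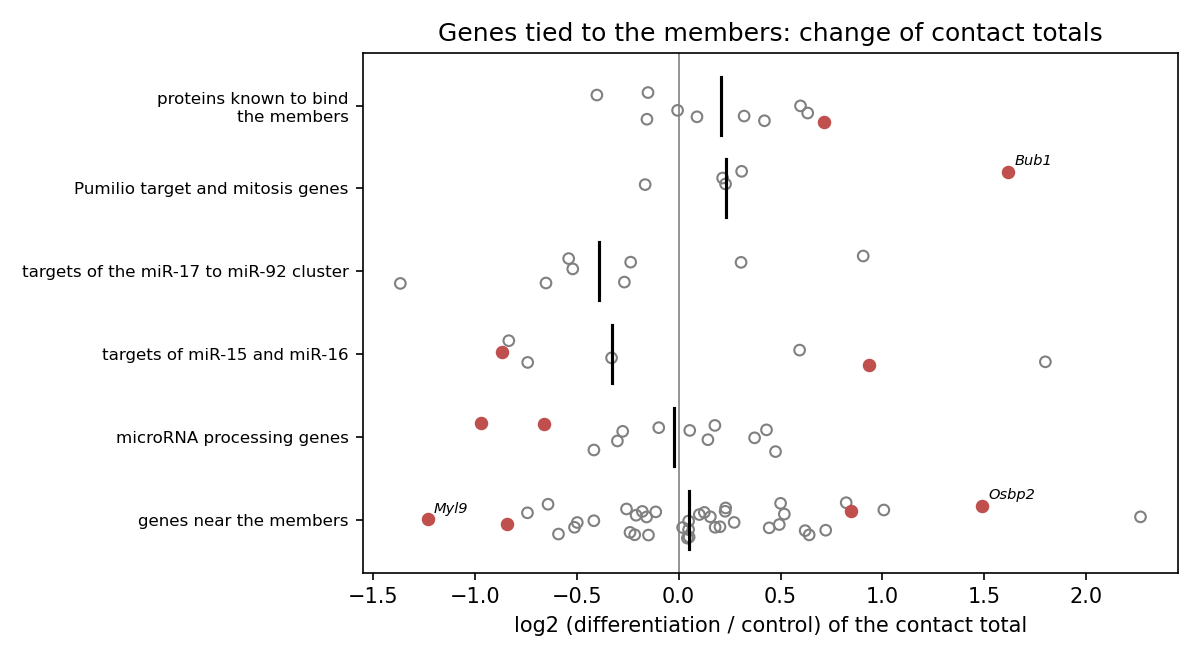
Log2 change of the contact totals of tested genes in the 6 lists tied to the long noncoding RNAs; each point is a gene, filled where the adjusted p was under 0.05 and named where the change of such a gene was also over 1 in size, and the vertical bar is the list's median. Called genes lie on both sides of 0, with Bub1 (1.62) and Osbp2 (1.49) highest and Myl9 (−1.23) lowest among them.

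The RNAs whose contact totals ran most like those of each long noncoding RNA were found by the root mean square difference of log2 CPM, centred on the mean of all 4 libraries, among 6083 RNAs with a summed total of at least 100. For Dleu2 they were Sik3, a kinase gene (difference 0.017, log2 change −0.84), and the zinc finger gene Zfp516 (0.022, −0.90). For Pvt1 they were Tbc1d16 (0.012, −0.40) and Rab22a (0.027, −0.44), both genes of Rab GTPase traffic. Col6a6 and Nrp2 were nearest to Tug1 (0.035 and 0.043), and 2310035C23Rik and the lactate dehydrogenase gene Ldha to Mir17hg (0.043 and 0.047). None of these 8 had a listed pair with the RNA it resembled, and with 4 libraries likeness rests on few values. They were picked for likeness among 6083 RNAs, so their similar log2 changes follow from the choice and are no separate result.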

How the data were processed

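The authors deposited raw counts: 1 table with a row for each RNA pair and a column for each library, whole numbers throughout. The submitters' processing notes name STAR and GRCm38. The sources used here do not say how chimeric reads were called, whether duplicates were removed, whether counting used strand or how overlapping genes were resolved, so reads of overlapping or near-identical RNAs may be split or shared. Intervals on shares cover counting error only.

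All rows were tested in edgeR 4.0.16 (R 4.3.3) by the two-sided quasi-likelihood test after TMM scaling, keeping what filterByExpr passed at a minimum count of 5 and total of 10. Calls were made at a Benjamini-Hochberg adjusted p under 0.05. Contact totals sum all pairs of an RNA, with a within-RNA pair counted once, so a between-RNA pair enters 2 totals. The balance fit tested contact kind by group, with a term for each library. CPM are not corrected for length, and no test compared levels of different RNAs. CPM of pairs were scaled to the summed pair counts and CPM of contact totals to the summed totals, so their ratio is no share. TMM factors for pairs were 0.949 and 0.957 in differentiation and 1.04 and 1.06 in control. For totals they were 1.02 and 1.09 in differentiation and 0.949 and 0.944 in control. Log2 changes of pairs and of totals are therefore on different scales. Summed levels of markers add RNAs of unlike length and are given as description. Statements that groups did not overlap are also description. They rest on 2 libraries each, and how many of all pairs or RNAs separate in this way was not counted. The scripts were tested on simulated data. DESeq2 1.42.0, RLE scaling, column totals, other filters, a replicate block and between-RNA pairs only were alternatives. Others left out each library, Gm42418 and Gm26917 pairs, Neat1 and Malat1 pairs or identical pairs. No alternative left out the pairs of Slc9a9 or Shroom3.

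The members and lists were chosen with earlier results of these data known. Named were the 4 listed RNAs, their within-RNA pairs and up to 5 largest partner pairs. Per list, up to 4 called genes by adjusted p were named, or the 2 tested genes of highest mean count where none was called, and for each RNA the 2 most like it. One result that the rule names is not reported here. Other partners and genes were named after their values were seen. Coordinates and gene names are from RefSeq GRCm38.p6. With 1 library left out, the tested pairs and RNAs were kept as they were, and a group of 1 library took its spread from the other group. Hub RNAs were taken as the 5 with most partners after seeing the data.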

Additional observations from a re-analysis of the deposited data

How the results depend on the processing

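The Dleu2 total kept its direction in all 14 alternatives, with log2 changes from −1.02 to −0.11. It no longer passed under RLE scaling (−0.83, adjusted p = 0.0524), column totals (−0.70), DESeq2 (−0.83), without Gm42418 and Gm26917 pairs (−0.997) and over between-RNA pairs only (−0.11), so 0 contact totals were called lower in each of these 5 settings. With 1 library left out its change ran from −1.02 to −0.67 and the number of contact totals called lower from 0 to 2, Pvt1 being the other (−0.70 to −0.14). For other results the cause of a change was not tested. The change of Tug1 turned positive under RLE scaling (0.0297), column totals (0.16), the default filter (0.0223), the replicate block (0.0120), DESeq2 (0.0336), over between-RNA pairs only (0.16) and without Neat1 and Malat1 pairs (0.49), and ran from −0.19 to 0.21 with 1 library left out. That of Mir17hg turned to 0.0067 under column totals and 0.0095 over between-RNA pairs only, ran from −0.54 to 0.26 with 1 library left out, and could not be tested under the default filter or without Gm42418 and Gm26917 pairs. Column totals moved the median over all contact totals to 0.16. The pair of Dleu2 with itself passed under column totals (adjusted p = 0.0425), no filter (0.0295), the default filter (0.0446), the replicate block (0.0406) and without differentiation 1 (0.0146), so 1 pair was called lower in these and 0 to 1 with 1 library left out.

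With 1 library left out, these changes, none of which passed, took both signs: Dleu2 with Gm26917 (−0.50 to 0.51) and with Gm37472 (−0.49 to 0.0686), Mir17hg with Gm42418 (−0.29 to 1.07), and Pvt1 with Nsmce2 (−1.76 to 0.18), Gm26917 (−0.12 to 0.65), Malat1 (−0.42 to 0.36), itself (−0.63 to 0.18) and Slc9a9 (−0.48 to 0.0697). The balance of Pvt1 ran from −0.40 to 0.0913. In DESeq2 the change of Pvt1 with Malat1 was 0.0146. Over between-RNA pairs only the change of Cdc25a was −0.41. Without control 2, calls over all contact totals numbered 46 higher and 83 lower, against 598 and 742 with every library.

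The replicate numbers were not shown to pair the libraries: deviations from the group means of control 1 and differentiation 1 correlated at 0.0171 over 31688 pairs. With the replicate block the Dleu2 total had a change of −0.86 (adjusted p = 0.0237), and over the whole table called pairs numbered 1352 higher and 1082 lower, against 902 and 760 without the block. Depth limited many pairs: 16 of the 32 had a summed count under 20.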
